A study of Mus musculus with 6 samples.

Results

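The genes described here are 5 serotonin receptor genes, Htr1b, Htr1d, Htr2b, Htr3a and Htr3b, and both monoamine oxidase genes, Maoa and Maob, in mouse pancreatic islets. They were chosen by symbol from the 19940 genes of the authors' deposited table, and all 7 were found there. The islets, clusters of hormone-producing cells within the pancreas, came from pregnant C57BL6/J mice at gestational day 14.5 (3 samples) and from nonpregnant littermates of the same strain (3 samples). They were freed with an enzyme solution given through the bile duct and picked by hand, and their RNA was sequenced. The design text speaks of 5 animals in each group, and neither the age of the mice nor the number of animals behind a sample is given in the labels. The deposited table holds 1 rounded mean of reads per gene and group, so no value per sample and no spread between samples can be shown. Its p-values and adjusted p-values are the authors' own, and what spread they measure is not stated in the sources used here.

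Serotonin is made from tryptophan, packed into granules, released, and read by a family of receptors. Most of these are G protein-coupled: the HTR1 receptors act through Gi proteins, which lower cyclic AMP, and the HTR2 receptors through Gq proteins, which activate phospholipase C. HTR3 receptors are instead ion channels of the Cys-loop family, in which HTR3A can form a channel alone and HTR3B joins it. Monoamine oxidases A and B are flavin enzymes of the mitochondrial outer membrane that break down serotonin and other amines, MAOA with the higher preference for serotonin. In mouse islets, beta cells make serotonin during pregnancy, and receptors of all 3 kinds have been studied there for beta cell growth and insulin secretion.

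The members other than Htr2b, which was not paired here, form 3 pairs of relatives. Reads can be assigned to the right member only where the members of a pair differ. The following stretches of coding sequence hold the longest run of bases shared exactly within each pair, in capitals, with 21 flanking bases on either side in lower case. They were read 5′ to 3′ on the coding strand from the GENCODE M21 transcripts of build GRCm38, and coordinates span any intron between the exons named.
Htr1b: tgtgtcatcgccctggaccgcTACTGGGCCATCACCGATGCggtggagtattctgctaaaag
Htr1d: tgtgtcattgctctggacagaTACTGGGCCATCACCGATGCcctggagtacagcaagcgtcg
Htr3a: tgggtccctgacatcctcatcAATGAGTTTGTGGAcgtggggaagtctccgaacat
Htr3b: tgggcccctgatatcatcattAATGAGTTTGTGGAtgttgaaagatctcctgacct
Maoa: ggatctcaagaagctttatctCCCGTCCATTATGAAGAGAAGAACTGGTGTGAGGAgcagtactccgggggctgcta
Maob: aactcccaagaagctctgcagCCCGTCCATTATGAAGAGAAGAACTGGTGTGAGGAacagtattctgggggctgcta
The Htr1b stretch lies at chr9:81632083-81632144 on the minus strand and the Htr1d stretch at chr4:136442840-136442901 on the plus strand, each within the coding part of exon 2 of 2, at the conserved DRY motif of this receptor class. The Htr3a stretch (chr9:48904720-48906311, minus strand) and the Htr3b stretch (chr9:48946558-48947250, minus strand) each cross from exon 4 to exon 5 of 9, in the part that encodes the extracellular ligand-binding domain. The Maoa stretch (chrX:16680851-16682256, plus strand) and the Maob stretch (chrX:16716428-16718276, minus strand) each cross from exon 11 to exon 12 of 15 and end just after the codon of the cysteine that holds the flavin cofactor.

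The shared runs were short. Htr1b and Htr1d were identical at 66.6% of 1104 aligned coding bases, with a longest shared run of 20 bases. Htr3a and Htr3b were identical at 59.2% of 1298 aligned coding bases, with a longest run of 14 bases. Maoa and Maob were the closest pair, identical at 71.3% of 1548 aligned coding bases, with a longest run of 35 bases. When each annotated transcript was cut into windows of 50 bases, 0 windows of Htr1d, Htr3a and Maob occurred in a transcript of any other gene. For Htr3b this was 0.296%, for Maoa 3.98% and for Htr1b 17.1% of windows, the last spread over 556 other genes. The length of the reads was not given in the sources used here, so the window of 50 bases is an assumption.

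The loci place some members side by side. Htr3a (ENSMUSG00000032269; chr9:48899213-48911099) and Htr3b (ENSMUSG00000008590; chr9:48935008-48964990) both lie on the minus strand of chromosome 9, 23908 bases apart. Maoa (ENSMUSG00000025037; chrX:16619698-16687818, plus strand) and Maob (ENSMUSG00000040147; chrX:16709282-16817366, minus strand) face each other tail to tail on chromosome X, 21463 bases apart. Htr1b (ENSMUSG00000049511) lies at chr9:81628291-81633828 on the minus strand and Htr1d (ENSMUSG00000070687) at chr4:136423524-136444398 on the plus strand. Htr2b (ENSMUSG00000026228; chr1:86099026-86111970, minus strand) lies inside the span of Psmd1, a proteasome subunit gene on the opposite strand, and shares 9.58% of its 50-base windows with Psmd1 transcripts. Htr1b also overlaps exons of D430036J16Rik on the opposite strand. Whether counting used strand is not stated, so reads of Htr2b and Htr1b cannot be told apart from reads of these partners where the exons overlap.

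By the adjusted p of the authors' deposited table, with a threshold of 0.05, 0 of the 7 genes were called, 0 higher and 0 lower in pregnant islets, against 11.7% of all 19940 genes (7.57% higher and 4.15% lower). The unadjusted p was under 0.05 for 1 of the 7, Htr1d, against 22.2% of all genes, and no other test could be run on group means. Of the 7 deposited log2 ratios, 4 were above 0 and 3 below, with a median of 0.08 against -0.02 over all genes. The receptors had between 5 and 78 mean reads, whereas Maob, per length, was among the more abundant transcripts of the islet. Summed over genes, the mean reads per the authors' deposited table came to 87654449 for pregnant and 84493872 for nonpregnant islets.

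**Figure D1:**
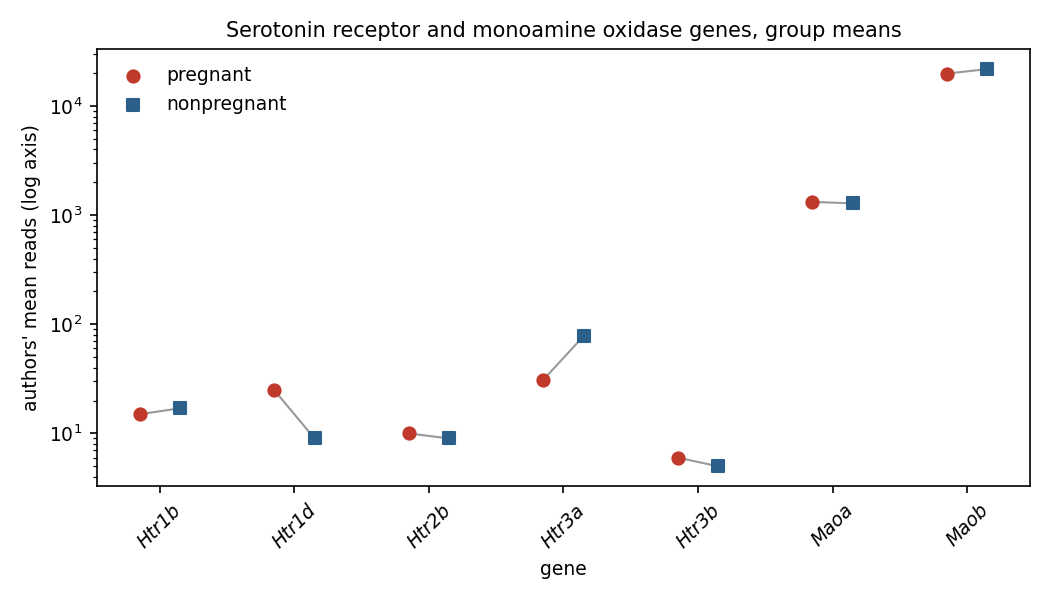
Authors' mean reads per gene on a log axis for the 7 genes, with circles for pregnant and squares for nonpregnant islets (1 mean per group, so no error bars). The 5 receptor genes lie between 5 and 78 reads, Maoa and Maob far above them by reads not corrected for length, and Htr1d and Htr3a show the widest gaps between groups, in opposite directions.

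Among the Gi-coupled receptors, Htr1d had 25 mean reads in pregnant and 9 in nonpregnant islets per the authors' deposited table. The pregnant mean was the higher, by a deposited fold change of 2.61 (log2 ratio 1.39), and the difference did not pass after adjustment (p = 0.021, adjusted p = 0.125 per the authors' deposited table). Htr1b, its closest relative here, had 15 mean reads in pregnant and 17 in nonpregnant islets per the authors' deposited table. The ratio of 0.89 was close to 1 (log2 ratio -0.16, adjusted p = 0.98 per the authors' deposited table). Levels per length are given as reads per kilobase of exon and per 1000000 summed mean reads of the group (RPKM). The level of Htr1d was 0.0891 RPKM in pregnant and 0.0333 in nonpregnant islets, while that of Htr1b was 0.0362 in pregnant and 0.0426 in nonpregnant islets. Htr1d was thus above Htr1b per length in pregnant islets and below it in nonpregnant islets, with no test of that order. In the pregnant group 1 mean read of Htr1d is worth 0.00356 RPKM.

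The Gq-coupled receptor gene Htr2b had 10 mean reads in pregnant and 9 in nonpregnant islets per the authors' deposited table. The group means lay 1 read apart (ratio 1.16, adjusted p = 0.98 per the authors' deposited table). Psmd1, in whose span Htr2b lies, had 10115 mean reads in pregnant and 10160 in nonpregnant islets per the authors' deposited table (ratio 1.02, adjusted p = 0.98). The part of Psmd1 reads in the Htr2b count was not tested.

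Of the channel subunits, Htr3a had 31 mean reads in pregnant and 78 in nonpregnant islets per the authors' deposited table. The pregnant mean was the lower, with a deposited fold change of 0.42 (log2 ratio -1.27). The difference did not pass either before or after adjustment (p = 0.272, adjusted p = 0.632 per the authors' deposited table). Htr3b, the partner subunit, had 6 mean reads in pregnant and 5 in nonpregnant islets per the authors' deposited table. Its ratio was 1.14 (adjusted p = 1.0 per the authors' deposited table), so the neighbouring subunit genes differed in the sign of their log2 ratio, and a difference between them was not tested. The mean reads of all 12 serotonin receptor genes of the table summed to 98 in pregnant and 129 in nonpregnant islets, and without Htr3a to 67 in pregnant and 51 in nonpregnant islets. No error can be given for these sums.

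Htr3a is also expressed by peripheral neurons, and genes that nerve fibres can express lay on both sides, most of the markers on the same side as Htr3a. Slc6a2, the noradrenaline transporter of sympathetic neurons, had 6 mean reads in pregnant and 297 in nonpregnant islets, and Dbh, which makes noradrenaline, had 5 in pregnant and 149 in nonpregnant islets per the authors' deposited table. Neither passed (p = 0.167 for Slc6a2 and 0.173 for Dbh, adjusted p = 0.477 and 0.488 per the authors' deposited table), although Slc6a2 and Dbh held ranks 1 and 2 from the bottom of all log2 ratios. Chrna3, a nicotinic receptor subunit of autonomic ganglia, had 44 mean reads in pregnant and 119 in nonpregnant islets per the authors' deposited table (adjusted p = 0.287). Other genes that such neurons can express lay on the opposite side without passing. Th, which makes the precursor of noradrenaline, had 2544 mean reads in pregnant and 2446 in nonpregnant islets, and Chrnb4, the usual partner subunit of Chrna3, had 159 in pregnant and 126 in nonpregnant islets per the authors' deposited table (adjusted p = 0.868 and 0.614). Chrnb2, another nicotinic subunit, had 7220 mean reads in pregnant and 6162 in nonpregnant islets per the authors' deposited table (adjusted p = 0.0825). These 6 genes were picked out after their values were seen. In the list of 8 neuron and glia markers, 6 had a log2 ratio below 0, and 0 were called higher and 0 lower, against 11.7% of all genes called. Their median log2 ratio was -0.46, and the median over all genes was itself below 0, at -0.02. None of the 8 was at 0 reads, and their summed level was 5.3 RPKM in pregnant and 6.62 in nonpregnant islets. Prph, the neuronal intermediate filament peripherin, had 94 mean reads in pregnant and 161 in nonpregnant islets, and Sox10, a glial transcription factor, had 10 in pregnant and 31 in nonpregnant islets per the authors' deposited table. Chat, which makes acetylcholine, had 13 mean reads in pregnant and 8 in nonpregnant islets per the authors' deposited table (adjusted p = 0.8). Th, at 12.3 RPKM in pregnant and 12.2 in nonpregnant islets, lay above the summed level of these 8 markers. Chrnb2, at 9.83 RPKM in pregnant and 8.7 in nonpregnant islets, did so too. Which cells the reads of Th and Chrnb2 come from was not tested. The part of nerve tissue in the Htr3a values was not tested either. In whole islets, fewer cells of a type and less RNA per cell cannot be told apart.

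**Figure D2:**
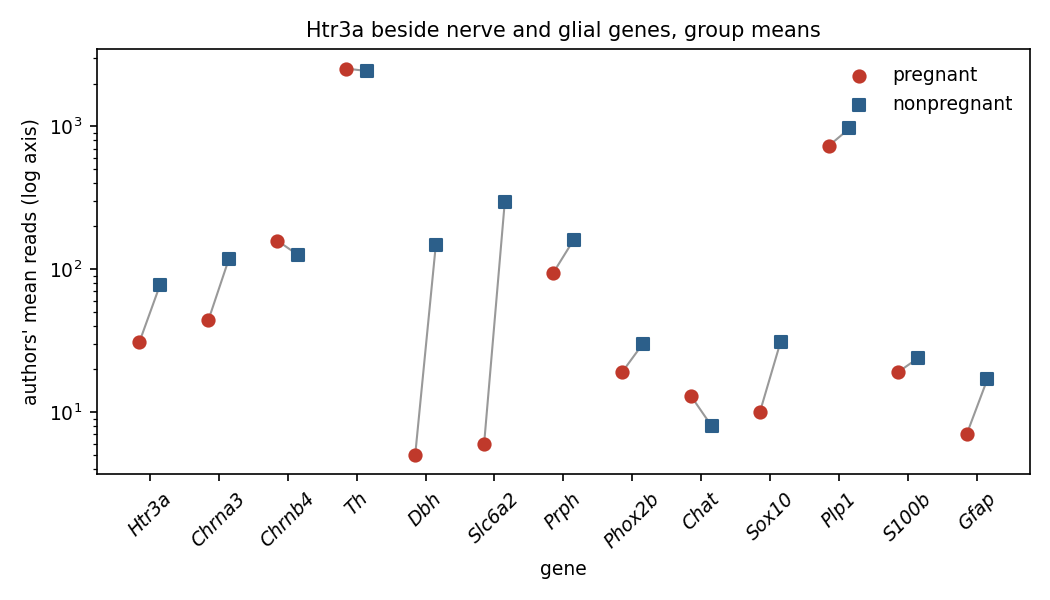
Authors' mean reads on a log axis for Htr3a, 5 genes that nerves can express and 7 of the 8 neuron and glia markers. Circles stand for pregnant and squares for nonpregnant islets (1 mean per group, no error bars). All genes shown except Chrnb4, Th and Chat lie lower in pregnant islets by mean reads, with the widest gaps for Dbh and Slc6a2, and none of them passed the authors' test.

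The other 7 serotonin receptor genes of the table were barely read. Htr2a, Htr2c, Htr4, Htr5a, Htr5b, Htr6 and Htr7 had between 0 and 4 mean reads in pregnant and between 1 and 3 in nonpregnant islets per the authors' deposited table, and each group summed to 11 reads. The lowest adjusted p among them was 0.515 per the authors' deposited table. It belonged to Htr5b, with 4 mean reads in pregnant and 1 in nonpregnant islets. Htr1a and Htr1f were looked for by symbol and had no line in the authors' deposited table.

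Maob had 19812 mean reads in pregnant and 21758 in nonpregnant islets per the authors' deposited table. The deposited fold change of Maob was 0.93 (log2 ratio -0.10), without passing (p = 0.469, adjusted p = 0.824 per the authors' deposited table). Maoa had 1322 mean reads in pregnant and 1281 in nonpregnant islets per the authors' deposited table. Its ratio of 1.06 did not pass (log2 ratio 0.08, p = 0.506, adjusted p = 0.847 per the authors' deposited table), and with scaling to the sum of mean reads its log2 ratio was -0.01. Per length, Maob stood at 22.4 times Maoa in pregnant and 25.4 times in nonpregnant islets. With the same reads divided by coding length instead of exon length, the pregnant value was 15.2 times.

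Ordered by level per length, the 7 genes spanned a wide range. Maob, at 81.0 RPKM in pregnant and 92.3 in nonpregnant islets, lay above 98.4% of annotated genes in pregnant and 98.8% in nonpregnant islets. Maoa followed at 3.62 in pregnant and 3.64 in nonpregnant islets, above the median gene, which was at 1.9 in pregnant and 1.99 in nonpregnant islets. Htr3a came next per length of exon at 0.17 in pregnant and 0.443 in nonpregnant islets, above 29.0% of annotated genes in pregnant and 36.3% in nonpregnant islets. With the same reads divided by coding length, the order turned in pregnant islets, with Htr3a at 0.241 RPKM below Htr1d at 0.254 RPKM. Reads of the coding part alone were not counted, so these values depend on the untranslated length of each gene. Over exon length the other receptors lay between 0.0284 and 0.0891 in pregnant islets and between 0.0245 and 0.05 in nonpregnant islets. In pregnant islets their order was Htr1d, Htr2b, Htr1b and Htr3b, and in nonpregnant islets Htr2b, Htr1b, Htr1d and Htr3b. Without values per sample it cannot be said which of these neighbours differ beyond their spread. The level of Maob was 477 times that of Htr3a in pregnant and 208 times in nonpregnant islets.

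Genes with few reads were called by the authors' test only at large ratios. Among the 4258 genes with a mean under 10 reads, which include Htr2b and Htr3b, 0.329% were called, and the smallest absolute log2 ratio called was 2.38. Among the 2892 genes with 10 to 100 mean reads, which include Htr1b, Htr1d and Htr3a, 6.6% were called, from an absolute log2 ratio of 0.82 upwards. Within that range of reads, 211 genes had an absolute log2 ratio at least as large as that of Htr1d, and 62.1% of them were called. For Htr3a the same comparison gave 252 genes, of which 57.9% were called. The ratios of Htr2b, Htr3b and Htr1b were smaller than any called in their range of reads. These bounds come from the same data and are not limits of detection, which were not computed. Among the 7388 genes with 1000 to 10000 mean reads, such as Maoa, calls began at an absolute log2 ratio of 0.29, and among the 1408 genes above, such as Maob, at 0.28. The ratios of both oxidases lay inside those bounds.

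**Figure D3:**
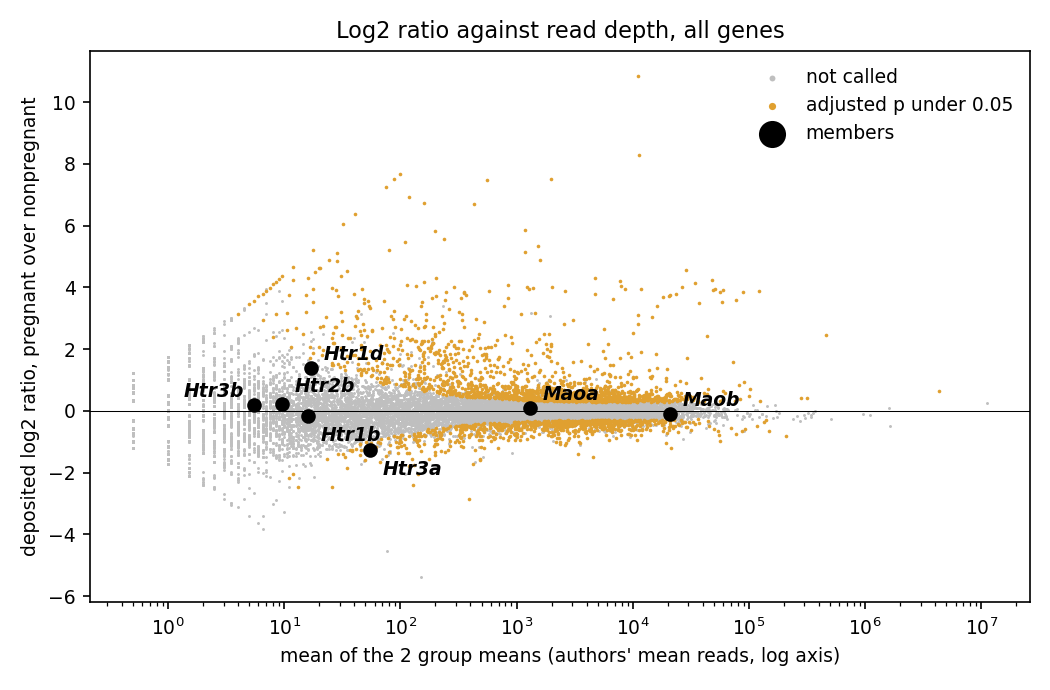
Deposited log2 ratio of pregnant over nonpregnant islets (vertical axis) against the mean of the 2 group means in reads (log axis) for the 19629 genes with a mean above 0, with called genes in orange and the 7 members in black. The receptors sit at the shallow left side, where called genes have large ratios, and Maoa and Maob sit near 0 at high depth.

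Some genes that supply serotonin passed the authors' test. Of 14 measured genes of synthesis and transport, 4 rose and 0 fell, with a median log2 ratio of 0.11. For this and each later list, the share of all genes called was 11.7% (7.57% higher and 4.15% lower). No list was tested as a set. Tph1, the rate-limiting hydroxylase outside the brain, had 22212 mean reads in pregnant and 11 in nonpregnant islets per the authors' deposited table. Tph2, the neuronal form of that enzyme, rose 8.95-fold, the vesicular transporter gene Slc18a1 1.72-fold and the decarboxylase gene Ddc 1.25-fold per the authors' deposited table (adjusted p = 2.06e-12, 3.14e-10 and 0.0194). Slc6a4, the serotonin reuptake transporter, had 17 mean reads in pregnant and 3 in nonpregnant islets without passing (adjusted p = 0.231 per the authors' deposited table).

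Enzymes that act beside or after monoamine oxidase included 2 higher and 0 lower of 8 measured (median log2 ratio 0.22). Aldh1b1, a mitochondrial aldehyde dehydrogenase, rose 1.41-fold per the authors' deposited table (adjusted p = 0.0166). Aldh2, which oxidises the aldehydes that monoamine oxidases produce, had 2829 mean reads in pregnant and 2832 in nonpregnant islets per the authors' deposited table (adjusted p = 0.98). Of 7 measured amine oxidases other than the pair described here, 1 rose and 1 fell (median log2 ratio -0.07). Paox, a polyamine oxidase of peroxisomes, rose 1.41-fold, and Aoc2, a copper amine oxidase, fell to 0.54 per the authors' deposited table (adjusted p = 0.0218 and 0.000155).

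Genes downstream of the Gi-coupled receptors included 1 higher and 2 lower of 25 (median log2 ratio 0.02). That was near the share of all genes called, 11.7%. Gnai2, a Gi alpha subunit, had 54842 mean reads in pregnant and 34746 in nonpregnant islets and rose 1.62-fold per the authors' deposited table (adjusted p = 5.72e-10). Rgs16, which shortens Gi and Gq signals, fell to 0.52 and Adcy8, an adenylyl cyclase, fell to 0.57 per the authors' deposited table (adjusted p = 2.33e-14 and 0.037). Prkar1a, a regulatory subunit of the cyclic AMP-dependent kinase, had 62868 mean reads in pregnant and 62207 in nonpregnant islets per the authors' deposited table (adjusted p = 0.914). Of 18 genes downstream of Gq, 1 rose and 0 fell (median log2 ratio -0.06). This was Gna14, a Gq-family alpha subunit, with 164 mean reads in pregnant and 42 in nonpregnant islets (3.95-fold, adjusted p = 6.6e-11 per the authors' deposited table). Itpr1, a calcium release channel of the endoplasmic reticulum, had 18339 mean reads in pregnant and 21800 in nonpregnant islets per the authors' deposited table (adjusted p = 0.27). Gnaq itself had 11041 mean reads in pregnant and 11543 in nonpregnant islets per the authors' deposited table (adjusted p = 0.98).

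Among 8 genes whose products bind or regulate G protein-coupled receptors or Cys-loop channels, not only those for serotonin, 0 rose and 1 fell (median log2 ratio -0.07). Tmem35, an older symbol of the acetylcholine receptor chaperone gene Tmem35a, had 111 mean reads in pregnant and 285 in nonpregnant islets and fell to 0.4 per the authors' deposited table (adjusted p = 0.00802). Ric3, a chaperone of nicotinic and HTR3 channels, had 3694 mean reads in pregnant and 4003 in nonpregnant islets per the authors' deposited table (adjusted p = 0.813). Of 17 other Cys-loop channel genes, 2 rose and 0 fell (median log2 ratio -0.11). Gabra4, a GABA receptor subunit gene, had 369 mean reads in pregnant and 181 in nonpregnant islets and was 2.08-fold higher (adjusted p = 3.07e-07 per the authors' deposited table).

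Catecholamines are further substrates of the monoamine oxidases, and of 16 measured genes of their synthesis, transport and receptors 1 rose and 1 fell (median log2 ratio -0.13). Taar1, a trace amine receptor, fell to 0.73 per the authors' deposited table (adjusted p = 0.0471). Adra2a, a Gi-coupled adrenergic receptor, had 12738 mean reads in pregnant and 13580 in nonpregnant islets per the authors' deposited table (adjusted p = 0.906). Its level was 30.1 RPKM in pregnant and 33.3 RPKM in nonpregnant islets.

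**Figure D4:**
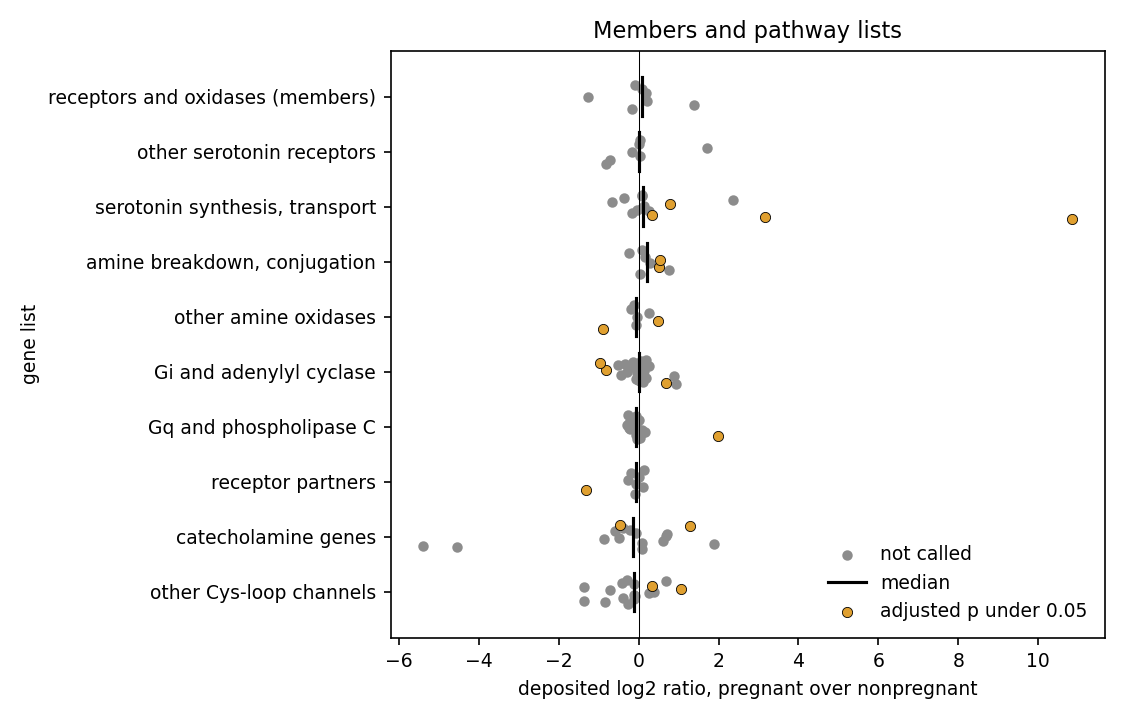
Deposited log2 ratios of pregnant over nonpregnant islets for the 7 genes (top) and for the measured genes of 9 pathway lists, with 1 point per gene, called genes in orange and a bar at each list's median. No receptor or oxidase gene was called, and the medians of all lists lie near 0, with Tph1 at the far right and Slc6a2 and Dbh at the far left.

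The nearest measured genes on either side of the loci did not pass either. They lay between 17851 bases (6030445D17Rik, after Htr1d) and 1162809 bases (Impg1, before Htr1b) away, so some are distant. Zbtb16 and Usp28, which flank the Htr3a and Htr3b pair, had ratios of 0.85 and 1.04 per the authors' deposited table (adjusted p = 0.968 and 0.949). Hnrnpr, before Htr1d, had 8840 mean reads in pregnant and 8205 in nonpregnant islets per the authors' deposited table (adjusted p = 0.481). Armc9, after Htr2b, stood at 0.88 per the authors' deposited table (adjusted p = 0.357). The remaining neighbours, 2810459M11Rik, 6030445D17Rik, Impg1, Mei4, Drr1 and Ndp, had between 0 and 18 mean reads in either group per the authors' deposited table.

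Markers of the cell types an islet preparation can hold were read in both groups. Of 7 beta cell genes 2 were higher and 0 lower, with summed levels of 182000 RPKM in pregnant and 153000 RPKM in nonpregnant islets. Alpha cell genes held 1.61% of mean reads in pregnant and 2.4% in nonpregnant islets (0 higher and 2 lower of 5), and delta and PP cell genes 0.646% in pregnant and 0.78% in nonpregnant islets (0 higher and 1 lower of 4). All 8 acinar markers rose, and together they held 1.02% of mean reads in pregnant and 0.0781% in nonpregnant islets. Endothelial (0 of 5 called), duct (0 of 4), stroma (1 higher of 6) and macrophage markers (1 higher of 5) were also present. Of mast cell and platelet markers, whose cells carry serotonin, 0 of 4 and 0 of 4 were called, with 13 summed mean reads in pregnant and 4 in nonpregnant islets for mast cells and 146 in pregnant and 173 in nonpregnant islets for platelets. The part of these cells in the values of the 7 genes was not tested.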

How the data were processed

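Islet RNA of 3 pregnant and 3 nonpregnant samples, grouped by their labels, was prepared as a TruSeq transcriptome library per the labels' protocols. TopHat2 2.0.12, TopHat, Bowtie, HTSeq 0.5.3p3 and build GRCm38 are named in the submitters' processing notes. Strand setting, library scaling and the authors' test are not given in the sources used here. Per the file headers, each line of the table holds a mean of reads per group, a score that the authors rounded to whole numbers. The authors also deposited a fold change (a linear ratio of pregnant over nonpregnant), its log2 form, a p-value and an adjusted p-value. The table had 19963 lines and 19940 genes, since 21 genes stood on several lines and were used once. Set against the ratio of both read means, the log2 ratio of the authors was higher by 0.04 (median; SD 0.00127) across 10102 genes over 500 reads in each group. Among genes under 10 reads, a pseudocount of 1 reached the deposited log2 ratio within rounding and 0.02 for 100.0% of genes, against 88.6% with 0, so ratios of low genes understate differences.

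Group means allow no test per sample, so calls use the deposited adjusted p under 0.05. The p-values measure an unknown spread, and whether it is technical was not tested. Calls did not follow the ratio of the group means alone. Slc6a2, at 6 mean reads in pregnant and 297 in nonpregnant islets, was not called. Gna14, at 164 in pregnant and 42 in nonpregnant islets, was called. How widely Htr3a varied between samples is therefore not known from its means. No depth per library is known, and no interval is given. Levels (RPKM) are mean reads per kilobase of the union of GENCODE M21 exons and per 1000000 summed mean reads. They cover the 19256 genes (96.6%) matched by ID. Coding sequences were aligned with biopython 1.88. Other steps used Python 3.11.15, pandas 2.3.3, numpy 2.4.6, scipy 1.17.1 and matplotlib 3.10.9. The Benjamini-Hochberg step was tested on simulated data. Alternatives were scaling, pseudocount, adjustment, threshold and length. Named genes are all 7 members, other receptors, called list members (at most 4 by p), up to 2 of the most read of a list, and locus neighbours. Aldh2, Gnaq, Slc6a4, Prph, Sox10, Chat, Slc6a2, Dbh, Chrna3, Th, Chrnb2 and Chrnb4 fall outside this rule and were chosen after their values were seen. The members and lists were chosen with earlier results of these data known. Values of some list members are not reported here.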

Additional observations from a re-analysis of the deposited data

How the results depend on the processing

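None of the 7 genes was called under thresholds of 0.01 or 0.1, or with Bonferroni adjustment. Adjustment over genes of at least 10 mean reads, which left out Htr2b and Htr3b, called none of the remaining 5. With adjustment over those genes, Htr1d had an adjusted p of 0.0987 and Htr3a of 0.52. Scaling to the sum of mean reads shifted the median log2 ratio of all such genes by -0.09, left Maob at -0.19, turned Maoa to -0.01, and left 3 of 7 genes above 0, against 4 as deposited. The log2 ratio of Htr1d ranged between 1.13 with a pseudocount of 5 and 1.46 with 0.5, and that of Htr3a between -1.36 with scaling to the sum and -1.18 with a pseudocount of 5. Over the longest transcript Maob stood at 25.9 times Maoa per length in pregnant islets, and over coding length at 15.2 times. Dividing the same reads of the whole gene by coding length put Htr1b at 0.148, Htr1d at 0.254 and Htr3a at 0.241 RPKM in pregnant islets. That places Htr1d above Htr3a, without a count of coding reads alone. In the pathway lists, Bonferroni adjustment left 7 higher and 1 lower genes, against 12 higher and 5 lower as deposited, and a threshold of 0.01 left 3 lower. Over all genes, Bonferroni adjustment left 530 higher and 114 lower, and a threshold of 0.01 left 437 lower, against 1510 higher and 827 lower as deposited. These lower counts come from the stricter rule itself. No replicate could be left out, because the table holds group means. No paired analysis was possible because the columns are group means and carry no replicate numbers. The smallest absolute log2 ratio called differed with depth, at 2.38 under 10 mean reads (Htr2b, Htr3b) and 0.82 between 10 and 100 (Htr1b, Htr1d, Htr3a).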
